A study of Mus musculus with 10 samples.

Results

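The genes described here are 34 genes that macrophages and other myeloid cells use throughout: surface receptors, Fc receptors with their adaptors, complement C1q, lysosomal proteins, the phagocyte NADPH oxidase, and signalling and transcription proteins. They were taken as a list by name, though with earlier results of these data known. Of the 34, 31 could be matched to a probe set among 17097 genes tested. Cd48, a leukocyte surface protein of the SLAM family, Ncf1, a cytosolic subunit of the oxidase, and Lyn, a kinase of the Src family, had no probe set paired with their symbol alone in the annotation used and were not analysed here. Each gene was read from its brightest probe set, averaged over the 10 arrays.

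RNA was taken from the epididymal fat pad, a visceral white fat depot, of male mice with a C57/Bl6 background. The groups are 3 Casp1-/- mice, which lack caspase-1, 3 ASC-/- mice, which lack the adaptor ASC (gene Pycard, called ASC1 in 1 label field), and 4 wild-type (WT) mice. All 3 genotypes ate a diet with 45% of its energy as fat for 16 weeks, from an age of 8 to 12 weeks, so that no lean group stands beside them. RNA of 1 mouse was hybridised to each Affymetrix array. Some caspase-1 null lines are known to carry a defect of the neighbouring Casp4 too, and some ASC null lines a defect of Dock2. Which lines were used is not stated in the labels.

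Adipose tissue macrophages accumulate in obesity, gather around dying adipocytes and clear their lipid and debris. They bind antibody-coated particles through Fc receptors, tag targets with C1q, degrade what they engulf in lysosomes and produce superoxide with the NADPH oxidase. Their identity depends on the transcription factor PU.1 (gene Spi1) and on signals through the receptor Csf1r. Caspase-1 and ASC are parts of the inflammasome, the complex that activates interleukin-1beta and interleukin-18 in such cells, and the series set its loss beside diet-induced obesity.

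All values are log2 signals, so that a difference of 1 is a 2-fold change. Control probe sets that should bind nothing in mouse RNA had array medians of 2.91 to 3.15 and single values of up to 5.01. Casp1 had 4.86, 4.98 and 4.69 on the Casp1-/- arrays, against 8.71, 9.09, 9.99 and 9.49 on the WT arrays. Pycard had 3.20, 3.71 and 3.30 on the ASC-/- arrays, against 9.10, 9.65, 10.57 and 9.97 on the WT arrays. Both labels thus match the arrays. The adipocyte genes Adipoq and Lep had signals of 13.23 to 13.73 and of 12.02 to 12.87 over the 10 arrays, far above background, as fits the labelled tissue.

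The arrays fell into 2 sets by 24 probe sets for poly-A spike-in transcripts, bacterial RNA added before labelling. Their mean was 8.07, 7.73 and 7.51 on the Casp1-/- arrays, 6.27, 6.21 and 6.30 on the ASC-/- arrays and 7.80, 6.50, 6.19 and 5.76 on WT replicates 1 to 4. WT replicate 1 thus lay with the Casp1-/- arrays, and no label names a batch. The 3' minus 5' signal of actin, a measure of RNA length, was 0.98, 0.82 and 0.84 in Casp1-/-, 0.59, 0.54 and 0.67 in ASC-/- and 1.05, 0.91, 0.53 and 0.46 in WT. Because both measures move with the level of the macrophage genes among the arrays, each main result is also given with the spike-in set as a block. Their part in the results beyond that fit was not tested.

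The first comparison asked how loss of caspase-1 changed the myeloid genes. All 31 measured genes lay below WT in Casp1-/- fat, and 23 of them fell past the threshold in limma, set at 0.05 for the p-value after Benjamini-Hochberg adjustment across the 17097 genes, while 0 rose. That is 74.2% of the measured genes, where 3.86% of all genes fell and 4.31% rose. The median difference was -1.43, a 2.69-fold lower signal, against a median of 0.04 over all genes, and the differences ranged from -2.30 for Spi1 to -0.21 for Lyz2. For 25 genes the signal was more than 2-fold lower, and the share of all genes with so large a fall was not counted. On the arrays themselves, 28 genes had all Casp1-/- arrays below all WT arrays, as had 9.6% of all genes. In bulk tissue, fewer macrophages and less RNA of these genes per macrophage cannot be told apart.

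The mean over the 31 genes was 9.06, 8.82 and 9.03 on the Casp1-/- arrays, 10.71, 10.36 and 10.25 on the ASC-/- arrays and 9.66, 10.11, 11.04 and 10.59 on the WT arrays. Group means were 8.97 ± 0.13 for Casp1-/- (SD, n = 3), 10.44 ± 0.24 for ASC-/- (SD, n = 3) and 10.35 ± 0.60 for WT (SD, n = 4). The Casp1-/- arrays were the lowest of all, and the lowest WT array was the one in the high spike-in set. The difference of the means was -1.38 for Casp1-/- minus WT and 0.09 for ASC-/- minus WT.

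**Figure D1:**
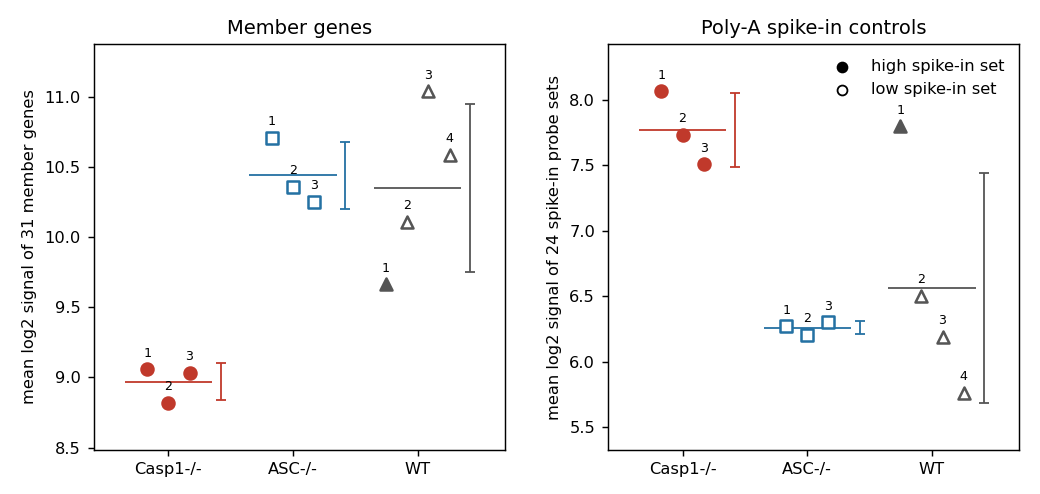
Mean log2 signal of the 31 measured member genes (left) and of 24 poly-A spike-in probe sets (right) on each array, by genotype. Numbers are replicates, lines are group means, bars are 1 SD, and filled symbols are the 4 arrays with high spike-in signal. The Casp1-/- arrays (8.82 to 9.06) lie below every other array for the member genes, and WT replicate 1 (9.66) is the lowest WT array and has high spike-in signal (7.80).

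With the spike-in set as a block, the Casp1-/- difference rests on WT replicate 1 alone, and 29 of the 31 genes still lay below it. The median was then -0.65, a 1.57-fold lower signal, and 0 genes passed the threshold in limma (adjusted p = 0.186 to 0.958), while 9 had an unadjusted p under 0.05. In that fit 0.702% of all genes passed the adjusted threshold. The shares of all genes below WT or with an unadjusted p under 0.05 were not counted in the fits with the block. All 3 Casp1-/- arrays lay below WT replicate 1 for 29 genes. How often that order occurs over all genes was not counted, so the 29 cannot be set against a background.

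The count of 23 also rested on single arrays. It was 0 without Casp1-/- replicate 2, where 0.374% of all genes passed in either direction, against 8.17% with all arrays. It was 4 without Casp1-/- replicate 1 (1.8% of all genes), 5 without Casp1-/- replicate 3 (1.59%) and 4 without WT replicate 4 (2.02%). It was 13 without ASC-/- replicate 2 (4.4%) and 15 without ASC-/- replicate 3 (5.37%), which enter only through the shared estimate of the spread. Without WT replicate 1 it was 29, and 17.7% of all genes passed. The calls over all genes thus fell and rose together with those of the members. The median difference moved less, between -1.66 without WT replicate 1 and -1.17 without WT replicate 3. Cd68, Mpeg1 and Tyrobp passed in 9 of these 10 fits and missed the threshold only without Casp1-/- replicate 2.

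**Figure D2:**
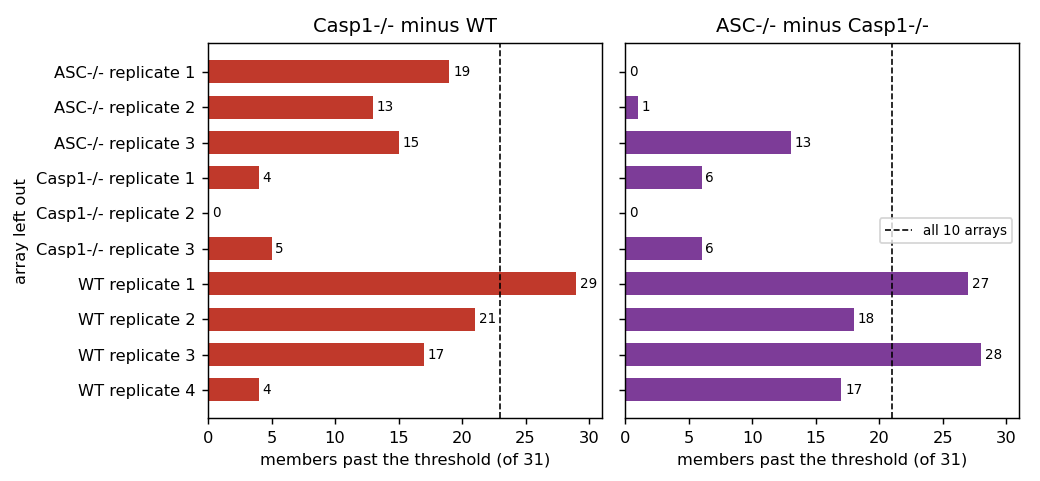
Number of the 31 measured member genes past the threshold when 1 array is left out, for Casp1-/- minus WT (left) and ASC-/- minus Casp1-/- (right). The dashed lines are the counts with all 10 arrays (23 and 21). The left counts run from 0 without Casp1-/- replicate 2 to 29 without WT replicate 1.

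The transcription factor genes moved unequally. Spi1, which encodes PU.1, the factor that myeloid development depends on, had 6.05, 5.14 and 6.15 on the Casp1-/- arrays, 8.88, 8.27 and 8.17 on the ASC-/- arrays and 6.79, 8.01, 9.04 and 8.50 on the WT arrays. All Casp1-/- arrays lay below all others, and Spi1 fell 4.94-fold (log2 difference -2.30 ± 0.48, SE, adjusted p = 0.0252), the largest difference of the list. With the block its difference was -1.01 and did not pass. Irf8, a partner of PU.1 in monocyte development, had 8.62, 8.23 and 8.25 on the Casp1-/- arrays, 9.0, 8.87 and 8.90 on the ASC-/- arrays and 8.32, 9.03, 9.27 and 8.73 on the WT arrays. Its Casp1-/- arrays overlapped WT replicate 1, and the difference of -0.47 did not pass (adjusted p = 0.171). A further probe set of Irf8 gave -0.52.

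Since Spi1 led the list, the promoters of the members were searched for the PU.1 core GAGGAAG on both strands. RefSeq promoters of GRCm38.p6, from 250 bases before to 50 bases after a start, were at hand for 22 of the 31 genes. The core was found in 8 of these 22 genes (36.4%), against 15.4% of all 27025 genes with a promoter there: C1qc, Cd53, Ctss, Fcgr1, Fcgr3, Itgam, Laptm5 and Vav1. The AP-1 motif TGANTCA was found in 4 of the 22 (18.2%, against 8.97% of all genes), namely Cd68, Cd84, Cybb and Ms4a7, and the TATA box TATAAA in 4 (18.2%, against 15.7%). No match of 1 motif overlapped a match of another in these genes. A match describes the letters only.

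The sequences below run from 120 bases before to 30 bases after the start, 5′ to 3′ on the gene's strand, with the PU.1 core in capitals (its reverse complement where the core lies on the other strand). They show where the core lies in 6 members, of which Itgam did not pass the threshold, and 4 members without the core. Of these 4, Cd84 and Cd68 had some of the largest differences in Casp1-/- fat (-2.26 and -2.12) and Fcgr2b and Lyz2 the smallest (-0.41 and -0.21). Whether the core goes with the size of the difference was not tested.
Fcgr1, chr3:96293940-96294089, minus strand: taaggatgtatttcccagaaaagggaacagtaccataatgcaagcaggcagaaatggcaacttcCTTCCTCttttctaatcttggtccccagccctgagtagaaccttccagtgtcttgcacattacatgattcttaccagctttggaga
Fcgr3, chr1:171059365-171059514, minus strand: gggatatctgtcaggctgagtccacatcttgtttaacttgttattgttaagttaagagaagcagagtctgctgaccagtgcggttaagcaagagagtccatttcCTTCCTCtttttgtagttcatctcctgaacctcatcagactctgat
Ctss, chr3:95526666-95526815, plus strand: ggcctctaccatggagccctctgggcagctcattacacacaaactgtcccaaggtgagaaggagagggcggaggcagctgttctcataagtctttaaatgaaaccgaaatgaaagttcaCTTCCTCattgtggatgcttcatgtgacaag
Laptm5, chr4:130913196-130913345, plus strand: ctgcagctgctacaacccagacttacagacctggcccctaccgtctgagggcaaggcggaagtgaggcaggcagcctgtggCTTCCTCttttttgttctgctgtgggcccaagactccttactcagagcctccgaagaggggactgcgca
Itgam, chr7:128062520-128062669, plus strand: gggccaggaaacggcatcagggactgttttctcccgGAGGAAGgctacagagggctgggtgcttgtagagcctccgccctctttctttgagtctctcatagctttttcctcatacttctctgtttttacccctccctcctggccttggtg
Vav1, chr17:57278980-57279129, plus strand: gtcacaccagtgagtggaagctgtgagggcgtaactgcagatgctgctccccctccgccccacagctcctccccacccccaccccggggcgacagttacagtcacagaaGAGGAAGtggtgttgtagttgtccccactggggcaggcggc
Cd84, chr1:171839577-171839726, plus strand: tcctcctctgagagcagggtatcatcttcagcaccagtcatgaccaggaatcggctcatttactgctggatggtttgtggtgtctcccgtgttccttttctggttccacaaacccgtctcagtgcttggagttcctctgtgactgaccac
Cd68, chr11:69666141-69666290, minus strand: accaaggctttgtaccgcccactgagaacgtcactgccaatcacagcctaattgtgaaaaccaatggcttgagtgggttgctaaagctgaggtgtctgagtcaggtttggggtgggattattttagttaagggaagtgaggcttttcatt
Fcgr2b, chr1:170976042-170976191, minus strand: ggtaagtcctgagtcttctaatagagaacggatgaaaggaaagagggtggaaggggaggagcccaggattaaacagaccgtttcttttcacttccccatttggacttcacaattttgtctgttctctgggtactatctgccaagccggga
Lyz2, chr10:117282243-117282392, minus strand: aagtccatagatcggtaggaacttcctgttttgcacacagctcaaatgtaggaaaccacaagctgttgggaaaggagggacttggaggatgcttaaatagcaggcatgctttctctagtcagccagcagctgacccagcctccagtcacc
The core began at position -56 in Fcgr1, -16 in Fcgr3, -1 in Ctss, -39 in Laptm5, -84 in Itgam and -11 in Vav1, counted from the start at +1. Fcgr3 has a further annotated start, from which its core lies at -7.

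Among the surface receptors 6 of 9 measured genes fell in Casp1-/- fat, with a median of -1.46. Adgre1, the surface antigen by which mouse macrophages are usually recognised, had 9.10, 8.83 and 9.13 on the Casp1-/- arrays, 11.54, 11.19 and 10.91 on the ASC-/- arrays and 10.25, 10.52, 11.82 and 11.38 on the WT arrays. The Casp1-/- arrays lay below all others, a 3.92-fold fall (adjusted p = 0.0163). Cd84, a SLAM family receptor, had 8.79, 7.78 and 8.77 on the Casp1-/- arrays, 11.32, 10.78 and 10.51 on the ASC-/- arrays and 9.84, 10.47, 11.53 and 10.99 on the WT arrays. Cd84 fell 4.80-fold (-2.26 ± 0.40, SE, adjusted p = 0.0172), again without overlap, and a further, dimmer probe set of it gave -1.44.

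Ms4a7, a membrane protein that crosses the membrane repeatedly and marks macrophages, had 8.39, 8.10 and 8.07 in Casp1-/-, 10.63, 10.24 and 10.03 in ASC-/- and 9.51, 9.76, 11.30 and 10.85 in WT. Its fall was 4.49-fold (adjusted p = 0.0182). The tetraspanin gene Cd53 fell 2.75-fold (adjusted p = 0.0231), Ptprc, the CD45 phosphatase of all leukocytes, 2.50-fold (adjusted p = 0.0350) and Cd14, a co-receptor for bacterial lipopolysaccharide, 2.45-fold (adjusted p = 0.0497). The last of these lies just inside the threshold.

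Csf1r, the receptor for the growth factors that keep macrophages alive, had 8.37, 8.24 and 8.25 in Casp1-/-, 9.71, 9.43 and 9.25 in ASC-/- and 8.50, 9.06, 9.97 and 9.61 in WT. The groups did not overlap, but the 2-fold lower level missed the threshold (adjusted p = 0.0660), and Casp1-/- lay only 0.22 below WT replicate 1. Itgam, the CD11b chain of a complement-binding integrin, had 4.81, 4.94 and 5.38 in Casp1-/-, 7.31, 6.87 and 6.43 in ASC-/- and 5.52, 6.48, 8.40 and 7.27 in WT. The WT arrays spanned 2.87, the widest range of the list, and the difference of -1.87 did not pass (adjusted p = 0.0686). On 2 of the 3 Casp1-/- arrays Itgam was no brighter than the brightest background control, so that the size of its difference is uncertain. With the block, the 9 receptor genes had differences of -1.74 to -0.22.

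Cd52 behaved unlike the rest. This small glycoprotein is made by lymphocytes and myeloid cells and also by the epididymis. It had 10.07, 12.22 and 10.21 on the Casp1-/- arrays, 12.14, 11.23 and 11.31 on the ASC-/- arrays and 12.57, 11.70, 11.76 and 11.32 on the WT arrays. Casp1-/- replicate 2 was the second highest array for Cd52 and the lowest of all for 22 other members, and WT replicate 1 was the highest. Adam7, an epididymis gene, had 3.48, 8.31 and 5.17 on the Casp1-/- arrays, 3.53, 3.77 and 3.67 on the ASC-/- arrays and 4.48, 6.20, 3.43 and 3.68 on the WT arrays. Adam7 was highest on Casp1-/- replicate 2, the second highest array for Cd52, but it had only 4.48 on WT replicate 1, the highest array for Cd52. Adam7 is 1 of 3 measured epididymis markers. Their differences in Casp1-/- minus WT had a median of 0.10 and ran from -0.02 to 1.21, the last for Adam7. The part of epididymis RNA in the Cd52 signal was not tested. The Cd52 difference of -1.01 did not pass (adjusted p = 0.238), and it was -1.70 without Casp1-/- replicate 2, also not past the threshold.

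**Figure D3:**
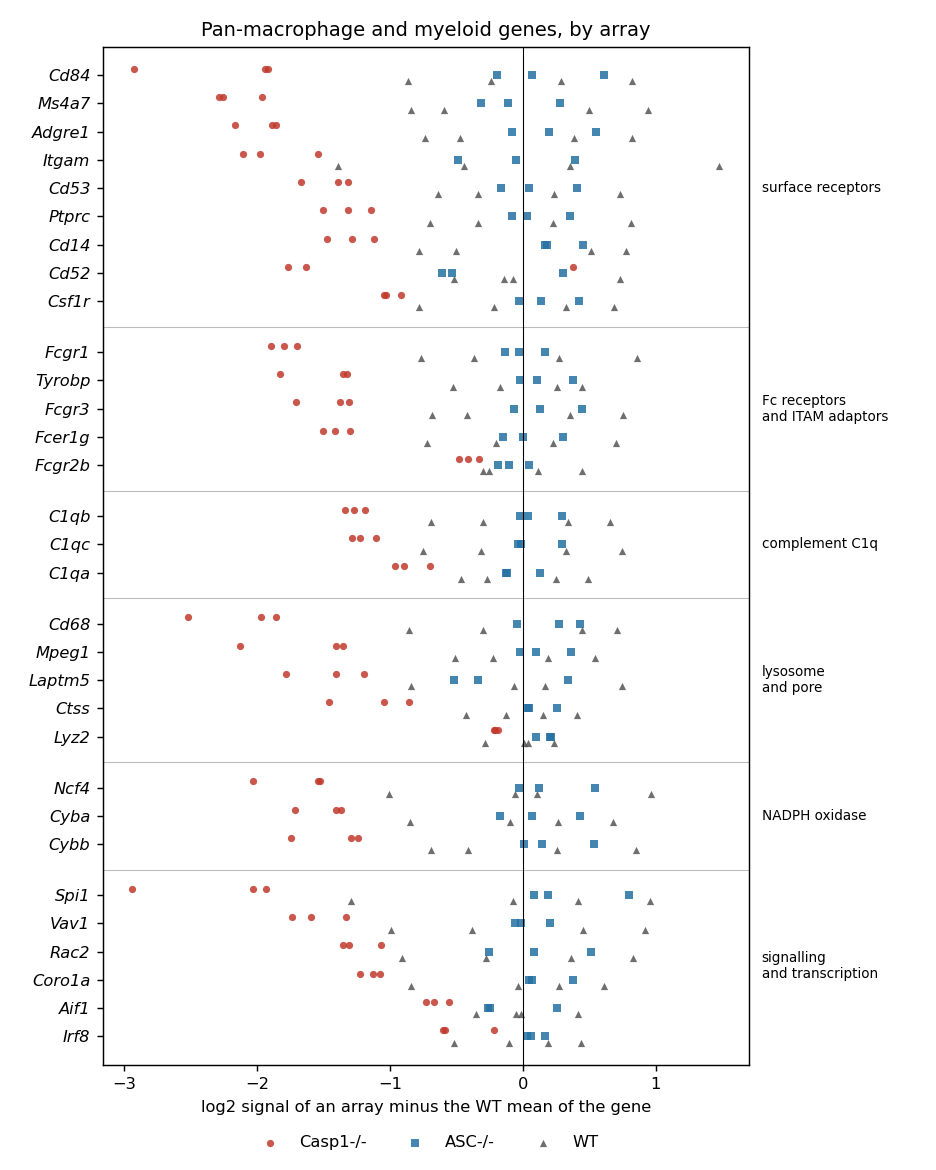
Log2 signal on each array minus the WT mean of the gene, for the 31 measured member genes ordered by role. Red circles are Casp1-/- arrays, blue squares ASC-/- arrays and grey triangles WT arrays. In 28 genes every Casp1-/- array lies left of every WT array; Cd52, Lyz2 and Irf8 are the exceptions.

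Fc receptors bind the constant part of antibodies. Activating receptors signal through the common chain Fcer1g, an adaptor with an immunoreceptor tyrosine-based activation motif (ITAM), whereas Fcgr2b carries an inhibitory motif. Of these 5 genes 4 fell past the threshold in Casp1-/- fat, and the inhibitory receptor gene was lower without passing it. Fcgr1, the high-affinity receptor, had 6.71, 6.52 and 6.61 on the Casp1-/- arrays, 8.57, 8.38 and 8.28 on the ASC-/- arrays and 7.64, 8.04, 9.27 and 8.68 on the WT arrays, a 3.48-fold fall (adjusted p = 0.0172). Fcgr3, a low-affinity activating receptor, had 9.65, 9.25 and 9.58 in Casp1-/-, 11.40, 11.09 and 10.89 in ASC-/- and 10.27, 10.54, 11.71 and 11.31 in WT, a 2.76-fold fall (adjusted p = 0.0279). In both genes the Casp1-/- arrays lay apart, below all others.

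Fcer1g had 10.08, 9.89 and 9.98 in Casp1-/-, 11.69, 11.39 and 11.24 in ASC-/- and 10.67, 11.19, 12.09 and 11.61 in WT, a 2.65-fold fall (adjusted p = 0.0227). Tyrobp, the ITAM adaptor DAP12 of many other myeloid receptors, had 11.12, 10.64 and 11.14 in Casp1-/-, 12.85, 12.58 and 12.45 in ASC-/- and 11.94, 12.30, 12.91 and 12.73 in WT. It fell 2.84-fold and had the smallest adjusted p of the list (0.0116).

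Fcgr2b had 9.93, 10.01 and 9.87 in Casp1-/-, 10.24, 10.16 and 10.39 in ASC-/- and 10.04, 10.09, 10.79 and 10.46 in WT. All Casp1-/- arrays lay below all WT arrays by a small margin, and the difference of -0.41 did not pass (adjusted p = 0.154). The other 3 probe sets of Fcgr2b gave -0.18, -0.26 and -0.23. The probe set used and 1 other may also bind related transcripts. Taken within each array, the log2 signal of Fcgr1 minus that of Fcgr2b was -3.33 ± 0.15 in Casp1-/- (SD, n = 3), -1.85 ± 0.23 in ASC-/- (SD, n = 3) and -1.94 ± 0.38 in WT (SD, n = 4). Relative to Fcgr2b on the same array, Fcgr3 was 2.08-fold and Fcer1g 2.0-fold lower in Casp1-/- than in WT. Such differences between probe sets are compared between groups only, since probe sets differ in brightness. These pairs were picked after their values were seen, so no test is given. With the block the 5 genes had differences of -1.03 (Fcgr1) to -0.11 (Fcgr2b).

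**Figure D4:**
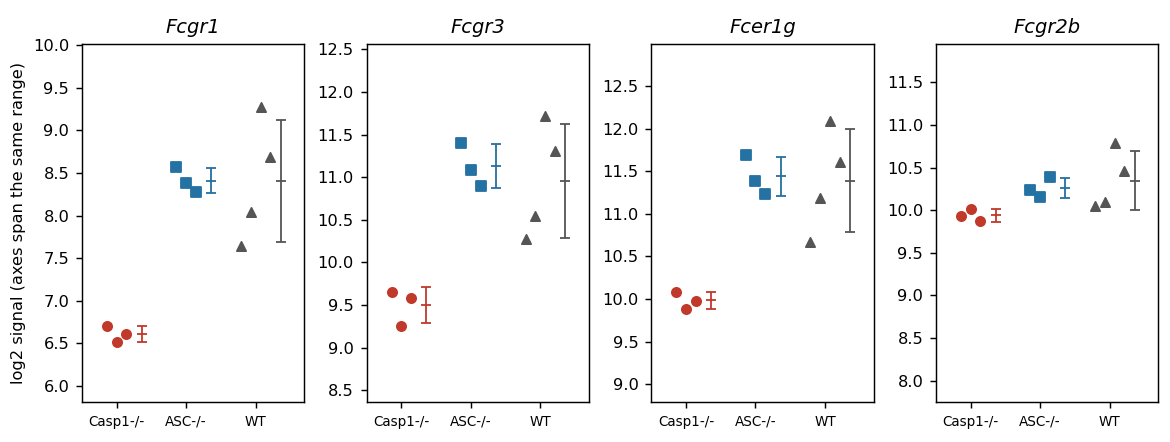
Log2 signal of 3 Fc receptor genes and of the common chain gene Fcer1g on each array, by genotype; bars are the mean and 1 SD, and the 4 vertical axes span the same number of log2 units. Fcgr1, Fcgr3 and Fcer1g lie 1.41 to 1.80 lower in Casp1-/- than in WT, Fcgr2b 0.41 lower.

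C1q, which opens the classical complement pathway, is built from 3 chains whose genes lie side by side on chromosome 4. All 3 genes fell. C1qb had 10.71, 10.56 and 10.62 on the Casp1-/- arrays, 12.19, 11.93 and 11.87 on the ASC-/- arrays and 11.21, 11.59, 12.55 and 12.24 on the WT arrays, a 2.41-fold fall (adjusted p = 0.0286). C1qc fell 2.31-fold (adjusted p = 0.0425) and C1qa 1.80-fold (adjusted p = 0.0422). With the block the 3 differences were -0.58 to -0.39.

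Of the 5 genes for lysosomal and pore-forming proteins, 4 fell. Cd68, a glycoprotein of macrophage lysosomes, had 10.16, 9.60 and 10.27 on the Casp1-/- arrays, 12.55, 12.40 and 12.08 on the ASC-/- arrays and 11.27, 11.82, 12.84 and 12.57 on the WT arrays. Its fall was 4.33-fold (-2.12 ± 0.35, SE, adjusted p = 0.0137). Mpeg1, which encodes the pore-forming perforin-2 of phagocytes, had 10.37, 9.64 and 10.42 in Casp1-/-, 12.13, 11.87 and 11.75 in ASC-/- and 11.26, 11.55, 12.32 and 11.96 in WT, a 3.09-fold fall (adjusted p = 0.0137). Neither gene overlapped between Casp1-/- and the other genotypes.

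Ctss, the protease cathepsin S that trims the invariant chain of MHC class II, had 11.88, 11.46 and 12.06 in Casp1-/-, 13.18, 12.96 and 12.97 in ASC-/- and 12.49, 12.79, 13.33 and 13.08 in WT, a 2.18-fold fall (adjusted p = 0.0180). Laptm5, a lysosomal membrane protein of blood cells, fell 2.75-fold (adjusted p = 0.0367), and its other probe set gave -1.92. Both Laptm5 probe sets may also bind related transcripts. Lyz2, the lysozyme of macrophages, had 12.41, 12.37 and 12.38 in Casp1-/-, 12.80, 12.80 and 12.69 in ASC-/- and 12.31, 12.63, 12.82 and 12.60 in WT. The Casp1-/- arrays overlapped WT replicate 1, and the difference of -0.21 was the smallest of the list (adjusted p = 0.258). Its probe set may also bind related transcripts. With the block the 5 differences ran from -1.26 for Cd68 to 0.08 for Lyz2.

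The 3 measured genes of the NADPH oxidase all fell. Cybb, its catalytic subunit, had 9.46, 9.01 and 9.51 in Casp1-/-, 11.28, 10.89 and 10.76 in ASC-/- and between 10.06 and 11.61 in WT, a 2.69-fold fall (adjusted p = 0.0352). Its other probe sets gave -1.60 and -1.69. Cyba, which stabilises the catalytic subunit in the membrane, fell 2.83-fold (adjusted p = 0.0249). Ncf4, a cytosolic subunit, had 6.87, 6.36 and 6.86 in Casp1-/-, 8.94, 8.51 and 8.37 in ASC-/- and 7.39, 8.33, 9.36 and 8.50 in WT, a 3.25-fold fall (adjusted p = 0.0308). In none of the 3 did the Casp1-/- arrays reach the WT arrays, and with the block the differences were -0.74 to -0.65. Rac2, the GTPase of blood cells that activates the oxidase, lay 2.37-fold lower and missed the threshold (adjusted p = 0.0639). Rac1, its counterpart in nearly all cells and not a member, had a difference of -0.11 (adjusted p = 0.402).

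Of the cytoskeletal and signalling genes, Vav1, an exchange factor for Rac proteins, had 4.37, 4.22 and 4.63 on the Casp1-/- arrays, 6.16, 5.95 and 5.90 on the ASC-/- arrays and 4.97, 5.58, 6.88 and 6.41 on the WT arrays. The difference of -1.56 passed (adjusted p = 0.0407), though the Casp1-/- values and WT replicate 1 are no brighter than the brightest background control and its size is therefore uncertain. Coro1a, an actin regulator of leukocytes, fell 2.21-fold (adjusted p = 0.0413). Aif1, the actin-binding protein Iba1, had 8.07, 7.96 and 7.90 in Casp1-/-, 8.89, 8.38 and 8.36 in ASC-/- and 8.28, 8.58, 9.04 and 8.62 in WT. It did not overlap between Casp1-/- and WT, yet the difference of -0.65 missed the threshold (adjusted p = 0.0574). The probe set of Aif1 may also bind related transcripts. With the block, the differences of these genes, Rac2 and both transcription factor genes ran from -1.01 to 0.05.

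Where a member had more than 1 probe set, the others pointed the same way in Casp1-/- minus WT. The 31 genes had 15 further probe sets, and all 15 lay below WT in Casp1-/-. Of these, 10 had a mean above the highest background control, and all 10 were lower. They were read on the same arrays, so they share the division by spike-in signal. The share of all probe sets below WT was not counted. In ASC-/- minus WT the probe sets of a gene could differ in sign, as for Laptm5 (-0.17 and 0.30).

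The second comparison asked the same of ASC. In ASC-/- fat 0 of the 31 genes passed the threshold in limma, in either direction, and 0 had an unadjusted p under 0.05. Over all genes 0.0351% passed (0.0175% lower and 0.0175% higher) and 2% had an unadjusted p under 0.05. There were 24 genes above and 7 below WT, with a median of 0.11 and differences from -0.28 for Cd52 to 0.36 for Spi1. For 30 of the 31 genes all ASC-/- arrays lay within the range of the WT arrays, and Cd52 was the exception. That range includes WT replicate 1 of the high spike-in set and was wide for most members. How often ASC-/- arrays lie within the WT range over all genes was not counted, so the 30 cannot be set against a background. In 0 genes were the ASC-/- arrays all below or all above the WT arrays, as they were in 1.86% and 1.33% of all genes. The 95% intervals of the difference lay within 1 of 0, a 2-fold change, for 25 genes. The remaining 6 intervals reached further, and the outermost bounds were -1.44 and 1.44, for Cd52 and Spi1, so the intervals of these 6 genes include a 2-fold change. With the spike-in set as a block the median was -0.12 and 0 genes passed.

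**Figure D5:**
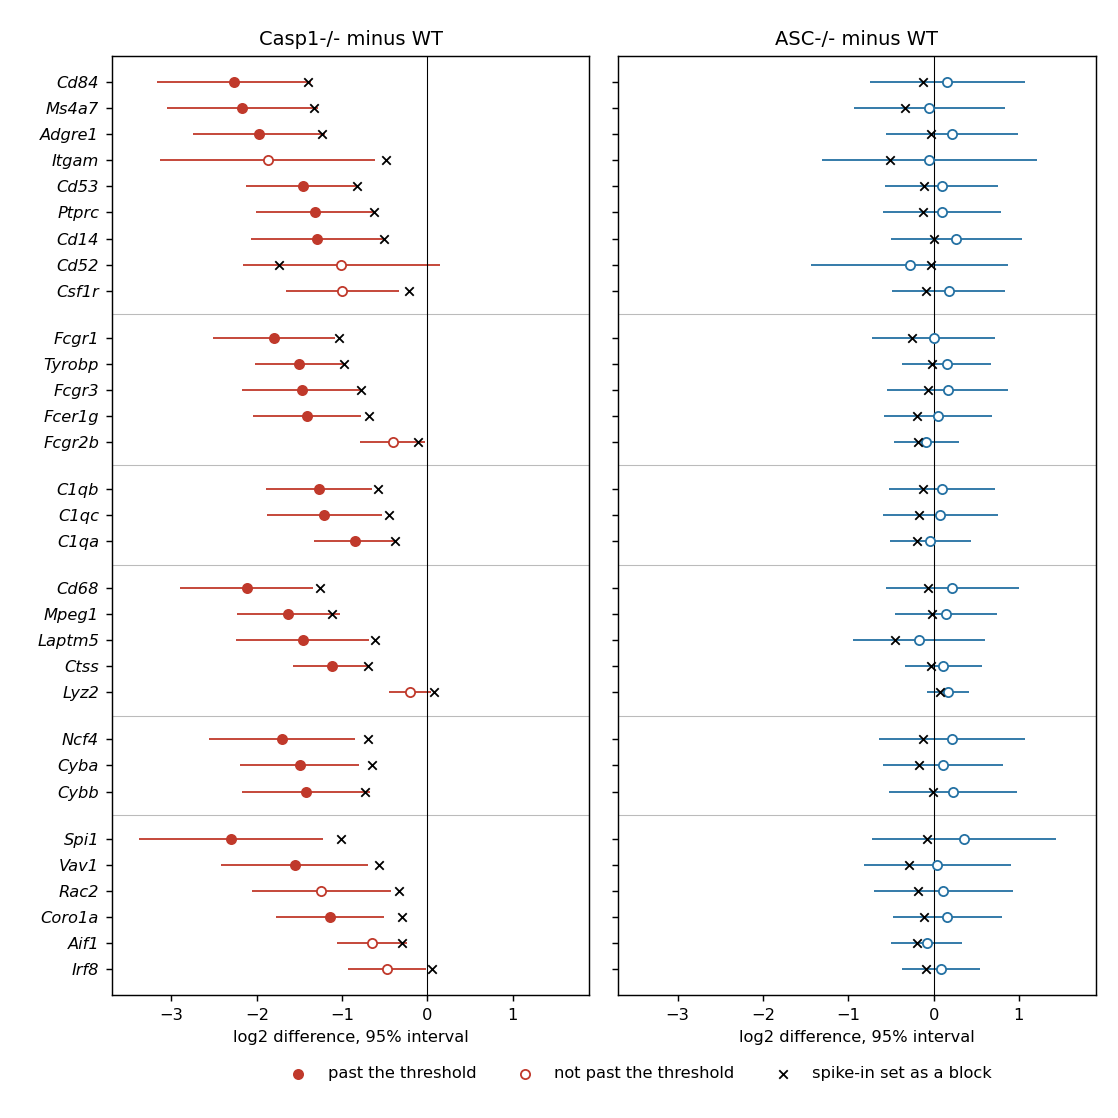
Fitted log2 differences with 95% intervals for Casp1-/- minus WT (left) and ASC-/- minus WT (right), by gene and role. Filled circles passed the threshold, open circles did not, and crosses are the difference with the spike-in set as a block. The Casp1-/- differences lie between -2.30 and -0.21 and move toward 0 with the block for every gene except Cd52, with Irf8 and Lyz2 just past 0; the ASC-/- differences lie between -0.28 and 0.36.

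The third comparison set both null genotypes against each other. All 31 genes were higher in ASC-/- than in Casp1-/- fat, 21 of them past the threshold (67.7%, where 3.85% of all genes were higher and 3.54% lower), and 29 had an unadjusted p under 0.05, as had 26% of all genes. They had a median difference of 1.56, a 2.94-fold higher signal. For 30 genes the arrays did not overlap, as for 17.3% of all genes, and Cd52 was the exception. Spi1 was 6.33-fold higher (adjusted p = 0.0218), Cd84 5.37-fold (adjusted p = 0.0160), Cd68 5.04-fold (adjusted p = 0.0129) and Adgre1 4.56-fold (adjusted p = 0.0142). On the probe set used, the 10 that missed the threshold were Itgam, Csf1r, Cd52, Fcgr2b, C1qa, Lyz2, Laptm5, Rac2, Aif1 and Irf8. The other, dimmer probe set of Laptm5 gave a larger difference (2.22 against 1.29). The count was 0 without ASC-/- replicate 1 (0.275% of all genes in either direction) or without Casp1-/- replicate 2 (0.398%). It was 1 without ASC-/- replicate 2 (0.901%) and 13 without ASC-/- replicate 3 (3.88%). Without Casp1-/- replicate 1 (2.06%) or 3 (1.91%) it was 6. With all arrays 7.39% of all genes passed. All ASC-/- arrays lie in the low and all Casp1-/- arrays in the high spike-in set, so genotype and set cannot be told apart from these arrays alone. Linked through the WT arrays by the block, the median was 0.49, and 0 members passed in limma while 4 had an unadjusted p under 0.05. In that block fit 0.368% of all genes passed.

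The members varied among the WT arrays nearly as a unit. WT replicate 1 was the lowest WT array for 30 of the 31 genes, and WT replicate 3 was the highest of all 10 arrays for 30 genes. The spike-in and actin measures also differed among the WT arrays, and their part in this order was not tested. Ranked from low to high over all arrays, the median rank of the members was 3, 1 and 2 on the Casp1-/- arrays, 9, 7 and 6 on the ASC-/- arrays and 4, 5, 10 and 8 on WT replicates 1 to 4. The range between WT arrays had a median of 1.5 over the genes and exceeded 1 for 24 of them. The corresponding medians were 0.36 for Casp1-/- and 0.45 for ASC-/-. For 11 genes the difference between Casp1-/- and WT exceeded the WT range, and for 20 it did not. None of these counts was made over all genes, so they describe the members only.

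Other genes of the same pathways, listed by pathway, were examined with the same test. Of 58 measured genes 28 fell and 0 rose in Casp1-/- fat, where 3.86% of all genes fell, with a median of -1.12. With the spike-in set as a block, a fit added for these genes after seeing the data, 0 of the 58 passed in limma (lowest adjusted p = 0.118) and 13 had an unadjusted p under 0.05. In that fit 46 lay below WT, and the median was -0.46, against 0.03 over all genes, of which 0.702% passed. The shares of all genes below WT or with an unadjusted p under 0.05 were not counted there, so the 13 and 46 have no background. The values that follow are those without the block. Among 12 genes of Fc receptor and ITAM signalling 6 fell, such as Fcgr4, a further activating Fc receptor (-2.16), the adaptor Lat2 (-2.25) and Sirpa, the receptor of the CD47 signal (-1.49), while the kinase genes Syk (-1.13) and Btk (-1.19) did not pass. Of 7 complement and integrin genes 4 fell: Itgb2, the partner chain of Itgam (-1.77), Itgax (-1.78), and the anaphylatoxin receptors C3ar1 (-2.33) and C5ar1 (-2.32). Of 12 genes of the leukocyte cytoskeleton 8 fell, with Myo1f (-2.25), Nckap1l (-1.80) and Lcp1 (-1.80) as examples, and of 13 leukocyte surface proteins 8 fell, led by Cd300a (-2.59). Of 8 further myeloid transcription factors 2 fell, Irf5 (-1.51) and Runx1 (-1.18), whereas Cebpa (0.39) and Nr1h3 (0.27), which adipocytes also express, did not pass.

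Of the growth factors that bind Csf1r, Csf1 had a difference of 0.17 (adjusted p = 0.654) and Il34 of 0.63 (adjusted p = 0.0579) in Casp1-/- minus WT. Neither passed, nor did Csf1r itself. In ASC-/- minus WT 1 of the 58 genes passed: Dock2, an activator of Rac in leukocytes, was lower by 2.66 (adjusted p = 0.0147). It had 6.91, 6.87 and 6.98 on the ASC-/- arrays, against 8.84, 9.40, 10.34 and 9.73 on the WT arrays, without overlap. In Casp1-/- it had 8.22, 7.88 and 8.06 and also fell (-1.53, adjusted p = 0.0191). With the block Dock2 was again the 1 gene of the 58 to pass (-2.90, adjusted p = 0.00220). In ASC-/- minus Casp1-/- 28 of the 58 rose and 0 fell, where 3.85% of all genes rose. With the block 0 passed in limma, 12 had an unadjusted p under 0.05, and the median was 0.29. The share of all genes at that unadjusted p was again not counted.

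Markers of other cell types were read beside these results. Of the neutrophil, mast cell, eosinophil, T and NK cell, B cell, dendritic cell, endothelial, progenitor, mesothelial and epididymis markers, 0 of 67 passed in Casp1-/- minus WT in limma. Over all genes 8.17% passed. The WT means of the neutrophil (4.74), eosinophil (3.33), T and NK cell (4.47), B cell (4.36) and dendritic cell (4.66) lists lay below the highest background control (5.01). A fall in markers so dim may not be seen. At an unadjusted p under 0.05 there were 15 of the 67 markers (22.4%, where 27.6% of all genes were). Among them were 6 of 8 endothelial markers, which were higher, and 3 of 8 mast cell markers, which were lower. The mean of the 8 mast cell markers was 4.75 to 5.67 in Casp1-/-, 5.40 to 6.33 in ASC-/- and 5.40 to 6.98 in WT. The mean of 9 neutrophil markers was 4.69 to 4.84 in Casp1-/-, 4.68 to 4.93 in ASC-/- and 4.62 to 4.82 in WT. The mean of 8 endothelial markers was 8.02 to 8.74 in Casp1-/-, 7.81 to 8.25 in ASC-/- and 7.65 to 8.10 in WT, and that of 6 mesothelial markers 6.64 to 8.11 in Casp1-/-, 6.36 to 7.14 in ASC-/- and 6.40 to 7.24 in WT. The mean of the 4 dendritic cell markers was 4.91 to 5.08 in Casp1-/-, 4.49 to 4.78 in ASC-/- and 4.49 to 4.81 in WT, so that the Casp1-/- arrays lay above all others, opposite to the members. The mean of 8 adipocyte markers was 11.36 to 11.45 in Casp1-/-, 10.88 to 11.13 in ASC-/- and 10.48 to 11.29 in WT, and it was lowest on WT replicate 3. Of these 8 genes 1 rose in Casp1-/-, Pparg, the regulator of fat cell differentiation (0.88, adjusted p = 0.0234), which did not pass with the block (0.95, adjusted p = 0.207). The part of these cell types in the results was not tested.

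Some members lie close together on a chromosome or close to a deleted gene. Itgam is the tested gene next to Pycard on chromosome 7, and Coro1a lies 61 tested genes from it. Without these 2 members the counts past the threshold were 22 for Casp1-/- minus WT, 0 for ASC-/- minus WT and 20 for ASC-/- minus Casp1-/-. Vav1 and Adgre1 are neighbours on chromosome 17, and Fcgr2b, Fcgr3, Fcer1g and Cd84 lie within a short stretch of chromosome 1. Of these 4, Fcgr2b alone did not pass the threshold in Casp1-/- minus WT, though Fcgr3 is only 2 tested genes away. Its difference was small (-0.41), but all its Casp1-/- arrays lay below all its WT arrays.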

How the data were processed

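The deposited values are log2 signals that the authors computed by RMA, as listed in the submitters' processing notes without a version. RMA subtracts background, brings the arrays to a common distribution and merges probes into probe sets, so small changes near background are compressed and a change in total RNA is not seen. Of 45141 probe sets, 28898 were paired with 1 symbol, 551 with several and 15588 with none, and 104 were controls. The highest probe set per gene gave 17097 genes. The fit, by limma 3.58.1 (R 4.3.3), held a mean for every genotype and used all 10 arrays. Its degrees of freedom were 7 from the residuals and 2.43 from limma's moderation of the variances. Tests were two-sided, with Benjamini-Hochberg adjustment over all genes at 0.05. The fit was tested on simulated data. The number of arrays limits the precision. Array medians were 4.29 to 4.36, and arrays correlated at 0.957 to 0.995, so none was a copy of another.

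The spike-in sets were divided at the widest gap between array means (1.00). The probe annotation is an old one, with symbols updated through GRCm38.p6 gene identifiers. Proteins were not analysed here. Values are given for all measured members, in full for the largest and smallest differences and at least 1 gene per role. The members, pathway lists, motifs and tests were chosen with earlier results of these data known. Alternatives were other normalizations, filters, probe set rules, variance models, array weights, blocks and arrays left out. Fits within 1 spike-in set were added after seeing the data.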

Additional observations from a re-analysis of the deposited data

How the results depend on the processing

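Every alternative kept the direction of the median and of the array mean for Casp1-/- minus WT and for ASC-/- minus Casp1-/-. Quantile normalization, centring, the filter on dim genes, other probe set rules, the trended and robust fit, array weights and leaving out members near the targets kept the 3 counts of members past the threshold within 1.5 times. For Casp1-/- minus WT (23 with all arrays) the count was 8 when only the compared genotypes were fitted. Leaving out single arrays gave 0 to 29, and for ASC-/- minus Casp1-/- (21) it gave 0 to 28. The differences moved too, and the cause was not tested. With the spike-in set as a block both counts were 0, the medians were -0.65 and 0.49, and the array means differed by -0.69 and 0.55. With only the high spike-in set, added after seeing the data, the median was -0.65 and the array mean difference -0.69. That set holds 3 Casp1-/- arrays and 1 WT array, whose spread is only assumed to be that of the Casp1-/- arrays. The fit called 2 members and 1.32% of all genes, which compares that 1 WT array and not the genotype. ASC-/- minus WT stayed at 0 members throughout, while its median (0.11) ran from -0.12 without WT replicate 1 to 0.34 without WT replicate 3, and was -0.12 with the spike-in block and -0.04 with array weights. For single members, 195 results were lost and 12 gained for Casp1-/- minus WT, and 152 and 32 for ASC-/- minus Casp1-/-, with the cause not tested.

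The replicate numbers did not pair the arrays: deviations of same-numbered arrays correlated at -0.26 to 0.19. With the replicate block 0 members passed in limma in each comparison. An unadjusted p under 0.05 was found for 27 members in Casp1-/- minus WT and for 28 in ASC-/- minus Casp1-/-. Over all genes 0.0526% passed for Casp1-/- minus WT, 0.0175% for ASC-/- minus WT and 0.111% for ASC-/- minus Casp1-/-. The share of all genes with an unadjusted p under 0.05 was not counted in these fits.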
